A study of Mus musculus with 12 samples.

Results

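The 40 genes described here encode the ligands, receptors, antagonists, Smad proteins, targets and matrix partners of bone morphogenetic protein (BMP) and transforming growth factor beta (TGF-beta) signaling. They were taken by symbol from a gene expression table of 17922 genes, and all 40 were found. RNA-seq had been performed on 12 samples of mouse primary rib chondrocytes (cartilage cells), which were released with collagenase and kept in culture before lysis. The LDH knockout was taken at postnatal day 5 and carried Col2-Cre, floxed Ldha on both alleles and a deletion of 1 Ldhb allele. The Acly knockout was taken at embryonic day E18.5 and carried Col2-Cre with floxed Acly on both alleles. Each knockout had its own littermate controls, whose genotype is not given beyond that word, and each of the 4 groups held 3 samples on a mixed, mainly C57BL/6 background. Ldha and Ldhb encode the subunits of lactate dehydrogenase, which ends glycolysis by turning pyruvate into lactate, and Acly encodes ATP citrate lyase, which makes acetyl-CoA in the cytoplasm. Col2-Cre puts the recombinase under a promoter that is active in cartilage cells. Cells in which that promoter was never active would keep their alleles. The study asked what follows in the skeleton when glycolysis or cytoplasmic acetyl-CoA is reduced. Whether a sample came from 1 animal or a pool is not stated, and p-values measure the spread between these samples only.

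BMPs and TGF-betas are secreted dimers that bring together type I and type II receptor kinases on the cell surface. BMP receptors pass the signal to Smad1, Smad5 and Smad9, and TGF-beta and activin receptors pass it to Smad2 and Smad3; both groups enter the nucleus with Smad4. In cartilage, BMP signals are known to favour chondrocyte formation and hypertrophy, TGF-beta signals to hold back hypertrophy, and secreted antagonists such as noggin to limit where BMPs act.

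Library totals were between 26362407 and 28154143 expected counts, so that 3 counts correspond to 0.107 to 0.114 CPM (counts per 1000000 counts). Ldha was at 845 ± 51.4 CPM in LDH controls and 86.7 ± 6.64 CPM in LDH knockouts (SD, n = 3), and Acly was at 197 ± 4.81 CPM in Acly controls and 74.2 ± 18.9 CPM in Acly knockouts. Ldhb, at 11.7 CPM in LDH controls and 15.1 CPM in LDH knockouts, was not lower (edgeR adjusted p 0.115). Levels of the cartilage markers differed widely. Over the 12 samples Col2a1 was between 2097 and 8605 TPM (transcripts per 1000000 transcripts), Sox9 between 245 and 397 TPM and Matn3 between 1.83 and 12.54 TPM. Matn1, another cartilage marker, was at or below 0.24 TPM in all 6 samples of the LDH set and between 1 and 5.89 TPM in the Acly set. The summed CPM of 4 Y-linked genes was 93.0 and 102 in LDH control replicates 1 and 2 and 0.590 in LDH control replicate 3, and it did not exceed 0.0367 in LDH knockouts. Among Acly samples, knockout replicates 2 and 3 had 74.3 and 82.8 CPM of it, control replicate 2 had 121 CPM, and the other 3 samples had at most 2.83 CPM.

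Promoter sequence is shown for 3 of the genes. Bmp4 and Acvr1 were the only members past the threshold in a knockout comparison. Smad6, which did not pass, was the only 1 of the 26 members with a sequence window to have the 8-base Smad-binding palindrome in it. The sequences are RefSeq's for assembly GRCm38.p6, which is not the mm9 build that the submitters' processing notes name, and are written 5′ to 3′ on the strand of the gene, which is the minus strand for all 3. Windows from 250 bases before to 50 bases after the start were at hand for 26 of the 40 genes. Bmp4 is shown over the 250 bases before its start (chr14:46390670-46390919), with the E-box CACGTG in capitals at position -188, counted from the start.
Bmp4: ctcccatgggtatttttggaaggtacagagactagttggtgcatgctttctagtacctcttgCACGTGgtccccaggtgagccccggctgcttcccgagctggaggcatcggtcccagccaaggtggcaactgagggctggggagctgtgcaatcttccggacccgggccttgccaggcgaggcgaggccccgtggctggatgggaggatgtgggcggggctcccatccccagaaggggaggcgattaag
Acvr1 is shown over the 250 bases before its start (chr2:58566829-58567078). None of the motifs searched lies in them, and 85.6% of the bases are G or C.
Acvr1: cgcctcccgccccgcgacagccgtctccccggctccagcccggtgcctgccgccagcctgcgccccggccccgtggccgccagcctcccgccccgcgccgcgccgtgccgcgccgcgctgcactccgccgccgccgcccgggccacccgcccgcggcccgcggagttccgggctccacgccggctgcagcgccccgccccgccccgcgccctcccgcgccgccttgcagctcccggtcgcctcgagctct
Smad6 is shown over 100 bases (chr9:64022056-64022155) that end with the palindrome GTCTAGAC in capitals, which begins at position -4 and spans the start.
Smad6: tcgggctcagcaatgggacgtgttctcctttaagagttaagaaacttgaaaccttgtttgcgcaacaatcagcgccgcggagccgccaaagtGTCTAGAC

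The motifs searched were GTCTAGAC, the palindrome read by Smad3 and Smad4, GGCGCC, a GC-rich element read by BMP-activated Smads, and CACGTG, an E-box. Each is its own reverse complement, so both strands were covered, and no motif contains another. GTCTAGAC was in the window of 1 of the 26 members and in 0.213% of all 32851 promoter windows of 300 bases. GGCGCC was in the windows of 10 members (38.5%), among them Bmpr1a, Bmpr2, Id2, Gdf10 and Grem1, against 11.9% of all windows. CACGTG was in those of Bmp4, Bmp6 and Tgfb2 (11.5%), against 7.15% of all windows. Members were counted by gene, in any window of the gene, and the background by window, so the shares differ in unit. The G and C content of the windows was not taken into account. These are matches of letters only.

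The members covered a wide range of levels, compared per length as the deposited TPM. Id1, Id3 and Id2, which encode inhibitors of basic helix-loop-helix factors and are direct BMP targets, were the most abundant, with means over all 12 samples of 345, 330 and 153 TPM. Among ligands Tgfb1 had the highest mean, 72.4 TPM, and among BMP ligands Gdf10, 49.5 TPM, and Bmp4, 22.3 TPM, but this order is that of means over both sets and does not hold in each. In LDH controls Gdf10 was at 8.46 ± 3.58 TPM, below Bmp4 at 23.9 ± 2.18 TPM, and in Acly controls it was at 93.8 ± 25.9 TPM, close to Tgfb1 at 90.4 ± 9.21 TPM (SD, n = 3). Acvr1 and Bmpr1a, both type I receptors for BMPs, led the receptors with 56.4 and 44.9 TPM. Among antagonists Grem1 (gremlin) was above Nog (noggin) in LDH controls, at 64.6 ± 23.0 against 28.9 ± 3.97 TPM, and below it in Acly controls, at 9.61 ± 3.10 against 25.2 ± 2.88 TPM (SD, n = 3). Among Smads Smad6, an inhibitory Smad, and Smad4 averaged 44.0 and 41.9 TPM. Neighbours in this order were often not separated: the 12 values of Smad6 ran from 32.1 to 68.4 TPM and those of Smad4 from 37.3 to 47.7 TPM. Gdf6 was lowest at 0.163 TPM, with 3 to 15 counts per sample, and Bmp3 averaged 0.648 TPM.

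**Figure D1:**
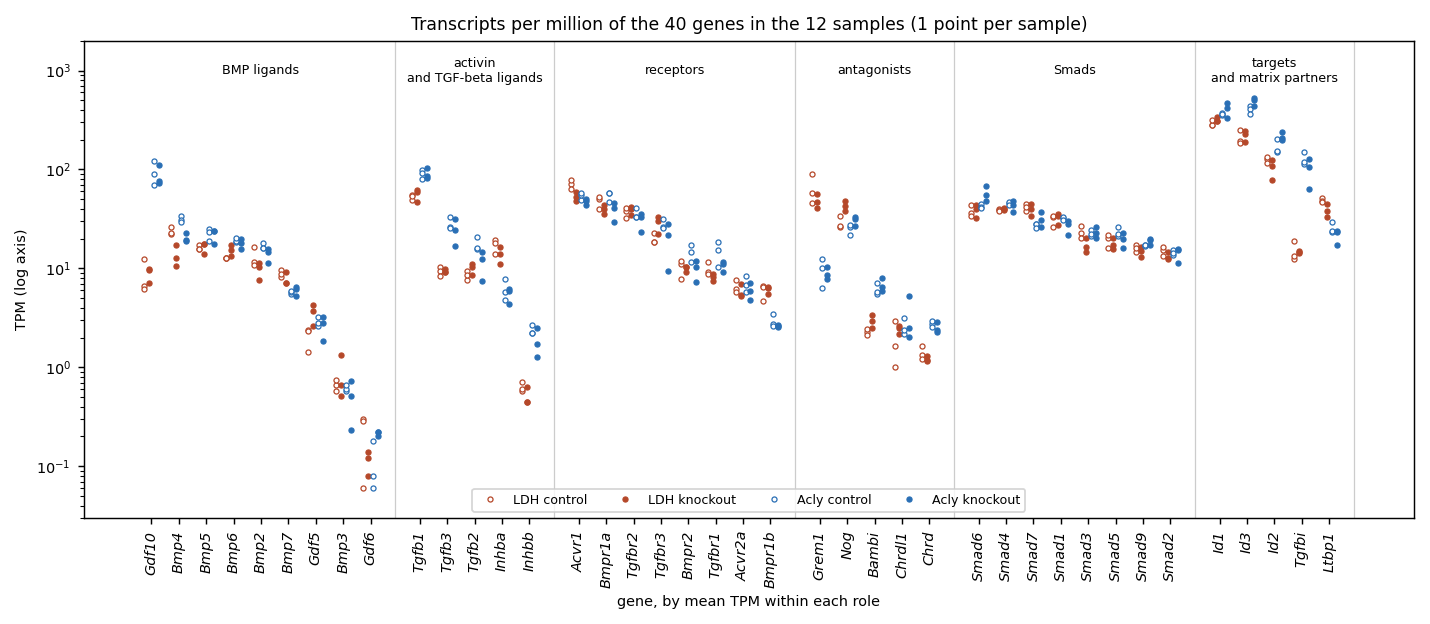
Deposited TPM on a log axis for each of the 40 genes, grouped by role and ordered by mean within a role, with 1 point per sample and a colour and fill for each of the 4 groups. Id1 and Id3 stand highest, with means of 345 and 330 TPM, and Gdf6 lowest at 0.163 TPM; the Acly set lies above the LDH set for Gdf10 and Tgfbi and below it for Grem1.

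In LDH knockouts the BMP ligand Bmp4 and the BMP type I receptor Acvr1 fell, and no member rose past the threshold. An adjusted p of 0.05 was passed by 2 of 39 tested members (5.13%), against 2.49% of all 13321 genes tested (edgeR). Both were lower, as were 1.07% of all genes, while 0 members and 1.43% of all genes were higher. At an unadjusted p under 0.05 there were 11 members (28.2%), against 19.6% of all genes. The 3 knockouts lay all above or all below the 3 controls for 8 members (20.5%), against 24.3% of all genes. The median log2 fold change of the members was 0.00 and that of all genes 0.01, with 20 members above 0 and 19 below.

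Bmp4, a ligand that drives early cartilage and bone formation, was at 19.1, 22.3 and 21.0 CPM in LDH controls and at 15.2, 11.6 and 9.29 CPM in LDH knockouts. Every knockout was below every control, and the mean went from 20.8 ± 1.60 to 12.02 ± 2.97 CPM (SD, n = 3). This is a log2 fold change of -0.79 (standard error, SE, 0.17) with an edgeR adjusted p of 0.0404, so that controls held 1.73 times the knockout level. In bulk RNA of this kind, fewer cells that express a gene and less of its RNA per cell cannot be told apart. Acvr1, the receptor also known as ALK2, was at 104.8, 111.6 and 97.7 CPM in controls and at 78.7, 73.5 and 86.4 CPM in knockouts. The groups did not overlap, and the log2 fold change was -0.40 with an SE of 0.09 and an edgeR adjusted p of 0.0453.

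Both calls lay close to the threshold. Bmp4 did not pass when LDH control replicate 1, 2 or 3 or knockout replicate 2 was left out, with log2 fold changes from -0.99 to -0.64 over the 6 fits that each lack 1 sample. Acvr1 passed only without knockout replicate 3 among those 6 fits, with -0.46 to -0.34. LDH control replicates 1 and 2 were the only samples of that set with Y-linked signal, and with that signal as a covariate neither gene passed: Bmp4 had a log2 fold change of -0.81 (adjusted p 0.243) and Acvr1 -0.28 (adjusted p 0.316) by edgeR. In the fit of the 4 samples low in Y-linked signal, which compares control replicate 3 alone with the 3 knockouts and takes that control to vary as they do, the values were -0.80 and -0.30. Y-linked signal and genotype partly coincide in this set.

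**Figure D2:**
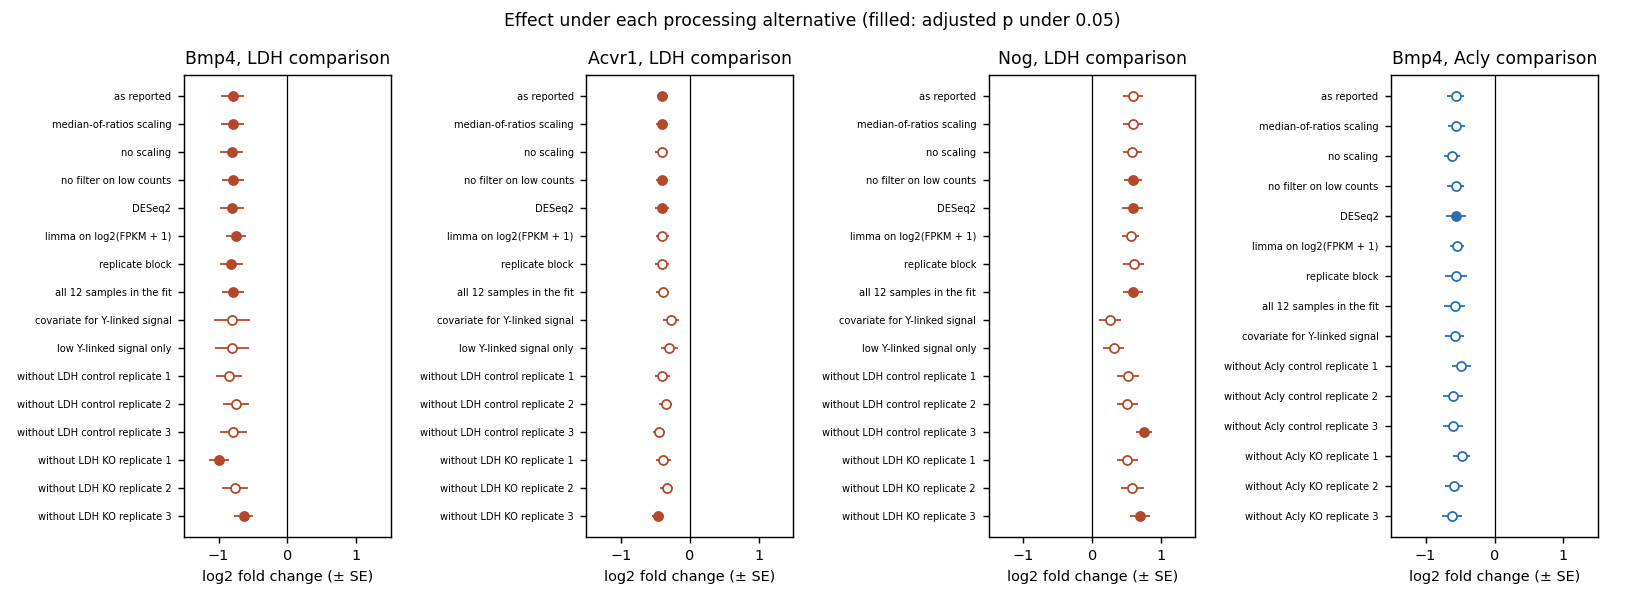
Log2 fold change with its SE for Bmp4, Acvr1 and Nog in the LDH comparison and for Bmp4 in the Acly comparison, as reported and under each processing alternative on the vertical axis; filled points passed an adjusted p of 0.05. Every point for Bmp4 and Acvr1 lies below 0 and every point for Nog above 0, while the fill changes between alternatives.

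Nog, the extracellular BMP antagonist noggin, was at 25.7, 25.3 and 34.7 CPM in LDH controls and at 48.3, 44.1 and 37.0 CPM in LDH knockouts. All knockouts were above all controls, with control replicate 3 and knockout replicate 3 close to each other. Its log2 fold change of 0.59 (SE 0.14) did not pass (edgeR adjusted p 0.0585), and it passed without control replicate 3 (log2 fold change 0.76) and without knockout replicate 3 (0.69). With the Y-linked covariate it was 0.26, and 0.31 with control replicate 3, the highest control for Nog, as the only control. Gdf5, a ligand of joints and the growth plate, was at 2.81, 1.66 and 2.93 CPM in controls and at 4.54, 5.29 and 3.07 CPM in knockouts. The groups did not overlap, but the lowest knockout lay just above the highest control, and the log2 fold change of 0.80 (SE 0.27) had an edgeR adjusted p of 0.149. Gdf6 was at 3, 15 and 15 counts in controls and at 6, 4 and 7 counts in knockouts and was too low to be tested. Besides Smad3, described with the Smads, the other members whose groups stood apart, named after their values were seen, were Bmp6, higher by 0.30, and Ltbp1 and Tgfbr1, with log2 fold changes of -0.31 and -0.25 and edgeR adjusted p of 0.204, 0.139 and 0.249 in that order.

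**Figure D3:**
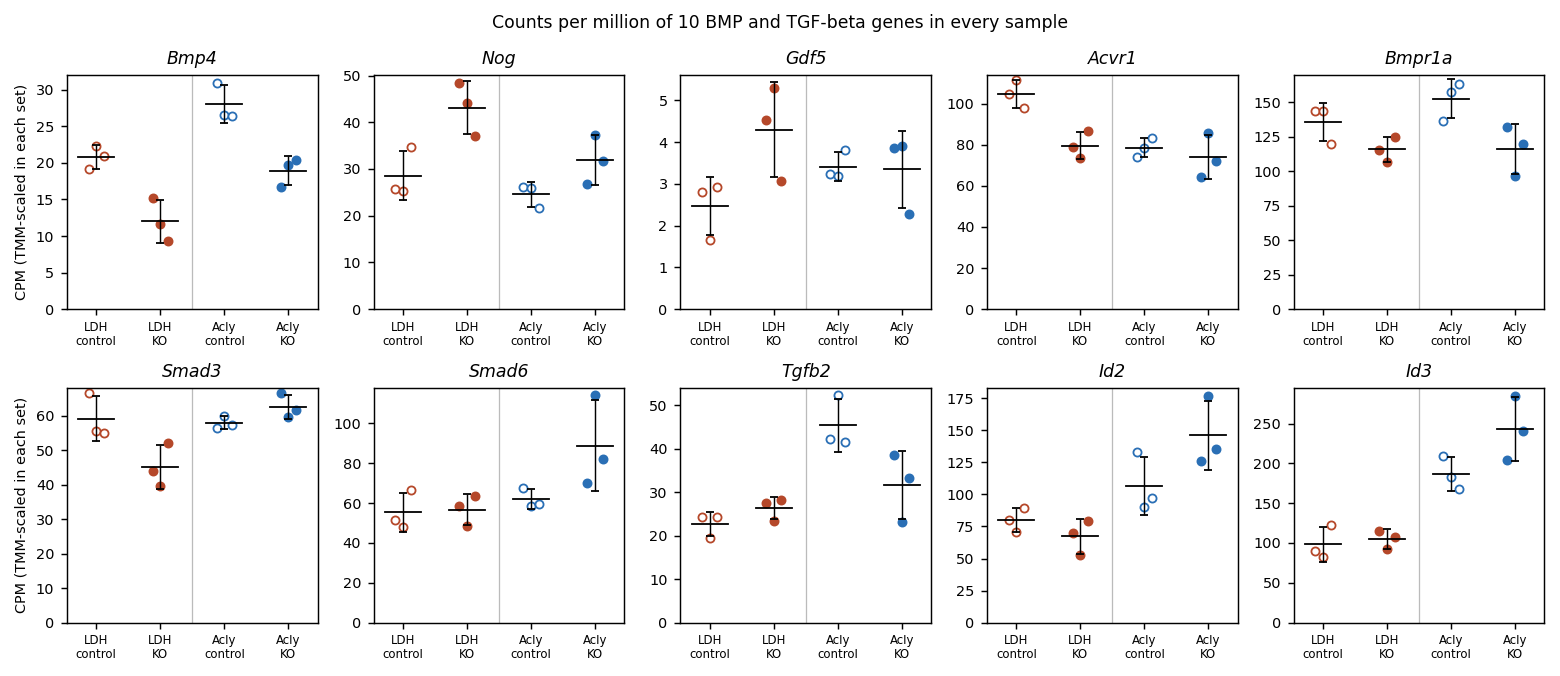
TMM-scaled CPM of 10 genes in every sample, 1 point per sample, with open points for controls and filled points for knockouts (KO), a horizontal line for the mean and bars for the SD (n = 3). In both sets every knockout lies below every control for Bmp4 and above every control for Nog; Smad6, Id2 and Id3 are highest in Acly knockout replicate 2.

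The other receptors had values on both sides of 0 in the LDH comparison and none passed, with a median log2 fold change over the 8 receptors of -0.07. Bmpr1a was at 144, 144 and 120 CPM in controls and at 116, 107 and 125 CPM in knockouts, which overlap, and its log2 fold change was -0.23 (SE 0.09, edgeR adjusted p 0.219). Tgfbr3, the co-receptor betaglycan, had the largest positive value among receptors, 0.54 (SE 0.15, edgeR adjusted p 0.0969), with knockouts at 97.1, 110 and 69.8 CPM and 1 of them below the highest control of 71.4 CPM.

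Among Smads, Smad3, which carries TGF-beta signals, was at 66.7, 55.6 and 55.1 CPM in LDH controls and at 44.0, 39.5 and 52.1 CPM in LDH knockouts. Each knockout was below each control, with a log2 fold change of -0.39 (SE 0.12, edgeR adjusted p 0.111). Smad4, the partner that both branches share, was at 81.0, 78.6 and 83.1 CPM in controls and at 80.1, 79.4 and 83.3 CPM in knockouts, a log2 fold change of 0.00 with an SE of 0.07. Smad6 was at 51.6, 48.0 and 66.6 CPM in controls and at 58.3, 48.5 and 63.4 CPM in knockouts, with a log2 fold change of 0.03 (SE 0.14) whose sign changed under 5 of 15 alternatives.

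The Id genes, the usual readout of BMP activity, did not pass in the LDH comparison. Id1 was at 126, 124 and 154 CPM in controls and at 144, 147 and 154 CPM in knockouts, and Id3 was at 89.4, 82.4 and 122 CPM in controls and at 116, 91.8 and 107 CPM in knockouts. In both, control replicate 3 lay among or above the knockouts. The log2 fold changes were 0.14 (SE 0.09) for Id1, 0.10 (SE 0.14) for Id3 and -0.25 (SE 0.14) for Id2, and those of Id1 and Id3 turned negative with the Y-linked covariate, at -0.08 and -0.28. Of the activin and TGF-beta ligands none was separated. Tgfb1 had a log2 fold change of 0.12 (SE 0.12), Tgfb2 of 0.22 (SE 0.12) and Tgfb3 of 0.03 (SE 0.11), and the antagonist Grem1, at 37.7, 72.6 and 50.9 CPM in controls and 39.9, 35.4 and 46.8 CPM in knockouts, of -0.40 (SE 0.20).

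Markers of cell types also differed between the LDH groups. The summed TPM of 12 cartilage markers was 4170 to 4728 in controls and 7383 to 10644 in knockouts, with 6 of 11 tested markers higher. Most of that sum was Col2a1, at 3271 to 3726 TPM in controls and 5726 to 8605 TPM in knockouts. The median log2 fold change of the 11 markers was 1.21. The sum of 8 markers of bone-forming cells was 208 to 310 in controls and 46.7 to 120 in knockouts, with 2 of 4 tested markers lower, Mepe at 0 in all 6 samples and Dmp1 at most at 0.02. The sum of 7 markers of hypertrophic cartilage cells was 8862 to 12615 in controls and 3486 to 6582 in knockouts, with Col10a1 higher and Spp1 lower past the threshold. Most of that sum was Spp1, at 8779 to 12503 TPM in controls and 3334 to 6371 TPM in knockouts. The sum of 10 fat cell markers was 24.5 to 32.6 in controls and 69.4 to 185 in knockouts, with 6 of 8 tested markers higher. For 9 markers of fibroblasts, perichondrium and tendon the ranges overlapped, at 377 to 700 and 473 to 632. Most of that sum was Dcn, at 246 to 506 TPM in controls and 347 to 536 TPM in knockouts. The median log2 fold change of the 9 markers was -0.45, and none passed. Col1a1, Pdgfra and Tnmd were lower in every knockout than in any control, while Dcn and Dpt had log2 fold changes above 0. The part of these shifts in the values of Bmp4, Acvr1 and Nog was not tested.

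In Acly knockouts no member passed the threshold. By edgeR 0 of 40 tested members passed, against 0.136% of all 13973 genes tested, with 8 members at an unadjusted p under 0.05 (20.0%) against 15.8% of all genes. DESeq2 called 1 member, Bmp4, and its share over all genes is not given here. All knockouts lay on 1 side of all controls for 8 members (20.0%), against 22.0% of all genes. The median log2 fold change was -0.04, against 0.00 over all genes, with 15 members above 0 and 25 below.

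Bmp4 had the lowest p of the members in this comparison too. It was at 31.0, 26.5 and 26.4 CPM in Acly controls and at 16.7, 19.7 and 20.4 CPM in Acly knockouts, with every knockout below every control. Its log2 fold change was -0.56 by both tools (edgeR: SE 0.12, adjusted p 0.159, DESeq2: SE 0.15, adjusted p 0.0149). Over the fits that leave out 1 sample it lay between -0.62 and -0.48. Nog was at 26.2, 25.9 and 21.6 CPM in controls and at 26.7, 37.4 and 31.6 CPM in knockouts, again with no overlap though knockout replicate 1 lay just above the controls, and its log2 fold change was 0.38 (SE 0.14, edgeR adjusted p 0.278). Gdf6 was at 3, 4 and 9 counts in controls and at 11 counts in each knockout, which is within a few reads of the floor of 3 counts. Gdf10 was at 121, 150 and 90.1 CPM in controls and at 98.5, 110 and 149 CPM in knockouts, with a log2 fold change of -0.01 (SE 0.20).

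All 8 receptors had a negative log2 fold change in the Acly comparison, from -0.48 to -0.08 with a median of -0.26, and none passed the threshold. The 9 tested other receptors and co-receptors of these pathways did not share that sign, with 6 above 0, 3 below and a median of 0.13. Bmpr2, the type II BMP receptor and the lowest of them, named here after its value was seen, was at 68.5, 92.6 and 84.0 CPM in controls and at 67.8, 48.3 and 59.8 CPM in knockouts (log2 fold change -0.48, SE 0.15, edgeR adjusted p 0.249). Bmpr1a was at 137, 158 and 164 CPM in controls and at 132, 96.7 and 120 CPM in knockouts, with -0.39 (SE 0.13, edgeR adjusted p 0.257). For both genes knockout replicate 2 was lowest and control replicate 1 close to knockout replicate 1. Without knockout replicate 2 the receptor median was -0.17, with 8 of 8 still negative, and without control replicate 2 it was -0.15 with 7 of 8 negative. Acvr1 was at 74.0, 78.4 and 83.4 CPM in controls and at 64.3, 85.5 and 72.0 CPM in knockouts, which overlap, with -0.09 (SE 0.12).

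Smad6, which blocks BMP receptors and is itself induced by BMPs, was at 67.7, 58.6 and 59.5 CPM in Acly controls and at 70.2, 114 and 82.1 CPM in Acly knockouts. Knockout replicate 2 stood apart on the high side and knockout replicate 1 lay just above the controls. Its log2 fold change was 0.52 (SE 0.17, edgeR adjusted p 0.253), and 0.30 without knockout replicate 2. Id3 was at 209, 183 and 167 CPM in controls and at 204, 285 and 241 CPM in knockouts, Id2 at 133, 90.5 and 97.2 CPM against 126, 177 and 135 CPM, and Id1 at 173, 155 and 165 CPM against 152, 245 and 197 CPM. Their log2 fold changes were 0.38 (SE 0.14), 0.45 (SE 0.17) and 0.27 (SE 0.16), with overlapping groups and knockout replicate 2 highest for each. Without that sample they were 0.26, 0.29 and 0.09. Tgfb2 was at 42.1, 52.4 and 41.6 CPM in controls and at 38.6, 23.2 and 33.2 CPM in knockouts, with no overlap and knockout replicate 2 lowest, and its log2 fold change of -0.52 (SE 0.18, edgeR adjusted p 0.264) was -0.34 without it. Smad1, which carries BMP signals and was named after its value was seen, was the other member whose groups stood apart, at 52.0, 50.6 and 49.3 CPM in controls and 44.8, 39.6 and 49.1 CPM in knockouts (log2 fold change -0.19, SE 0.10, edgeR adjusted p 0.374). Tgfb1 and Tgfb3 had log2 fold changes of 0.09 (SE 0.13) and -0.15 (SE 0.17).

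Cell type markers differed in the Acly set as well. Cartilage markers summed to 3637 to 4325 TPM in controls and 6054 to 6885 TPM in knockouts, with 2 of 12 tested markers higher. Most of that sum was Col2a1, at 2097 to 2466 TPM in controls and 4059 to 4586 TPM in knockouts. The median log2 fold change of the 12 markers was 0.47, with Hapln1 (-0.08) and Chad (-0.19) below 0. Markers of hypertrophic cartilage cells summed to 9127 to 13820 TPM in controls and 6598 to 8358 TPM in knockouts, with Col10a1 higher. Most of that sum was Spp1, at 8917 to 13588 TPM in controls and 6382 to 8206 TPM in knockouts. Spp1 did not pass, and the median log2 fold change of the 7 markers was -0.30. Markers of bone-forming cells summed to 651 to 714 TPM in controls and 370 to 528 TPM in knockouts, with none called. Col1a1, which is also on the list of fibroblasts, perichondrium and tendon, was at 320 to 440 TPM in controls. In knockout replicates 1, 2 and 3 it was at 372, 134 and 389 TPM. The median log2 fold change of the 6 tested markers was -0.16, with Sp7 (0.15) and Ifitm5 (0.02) above 0. Markers of fibroblasts, perichondrium and tendon summed to 1814 to 2285 TPM in controls and 621 to 1579 TPM in knockouts, with none of 9 called. The 621 TPM is that of knockout replicate 2, and the other knockouts were at 1573 and 1579 TPM. That library was also lowest for Bmpr2, Bmpr1a and Tgfb2 and highest for Smad6 and the Id genes. Not all receptors shared this, as it was the highest of the set for Acvr1. The part of these marker shifts in the values of Bmp4, Smad6, Tgfb2 and the receptors was not tested.

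**Figure D4:**
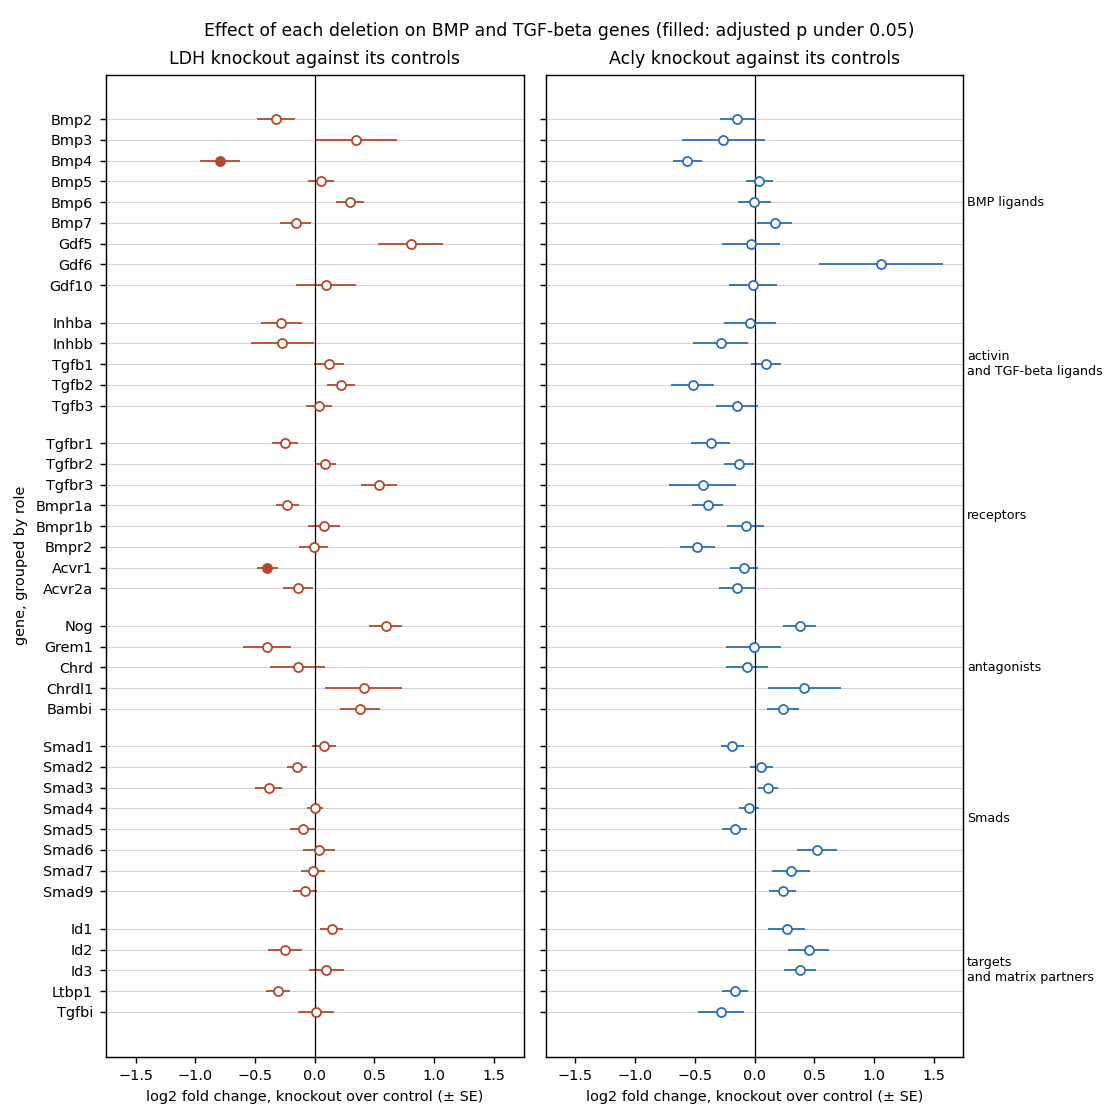
Log2 fold change of knockout over control for each member, grouped by role, with horizontal bars for the SE; the left panel is the LDH comparison and the right panel the Acly comparison, and filled points passed an adjusted p of 0.05 by edgeR. Bmp4 (-0.79) and Acvr1 (-0.40) are filled on the left, none is filled on the right, and all 8 receptors lie below 0 on the right; Gdf6 was not tested on the left.

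Both comparisons were then set side by side; they share no sample. Bmp4 and Nog were the only members whose knockout and control values stood apart in both sets in the same direction, Bmp4 lower and Nog higher, which is 2 of 39 members tested in both (5.13%) against 4.29% of all genes tested in both. The sign of the log2 fold change was the same in both sets for 21 of the 39 members (53.8%), against 57.4% of all genes. Tested directly in a fit of all 12 samples, the LDH effect differed from the Acly effect for 0 of 40 members by edgeR, against 0.161% of all 14251 genes tested, with 7 members at an unadjusted p under 0.05 (17.5%) against 13.0% of all genes. DESeq2 and limma called 0 as well. The lowest p belonged to Smad3, with a difference of effects of -0.48 on the log2 scale (SE 0.15, edgeR adjusted p 0.251), which comes from -0.39 in the LDH set and 0.11 in the Acly set. Tgfb2 followed with 0.75 (SE 0.24, edgeR adjusted p 0.251) and Id2 with -0.68 (SE 0.24, edgeR adjusted p 0.289). For Bmp4 the difference was -0.21 with an SE of 0.21, for Nog 0.24 with an SE of 0.21 and for Acvr1 -0.29 with an SE of 0.14.

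The genes whose levels followed Bmp4 most closely were Atmin, Slc17a9 and Zdhhc5, with Pearson's r of 0.938, 0.915 and 0.908 over the 12 samples of log2 CPM after the mean of each set was subtracted. These are the highest among all tested genes, and the samples share their libraries and groups.

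The control groups differed far more than either knockout from its controls. Between Acly controls and LDH controls, 20 of 40 members passed (50%), against 55.0% of all 14251 genes tested (edgeR). In Acly controls 12 of them were higher, as were 29.4% of all genes, and 8 lower, as were 25.7%. Age, mouse line and any library batch coincide in this comparison and cannot be told apart. Cell type markers differed too. Those of skeletal muscle summed to 33.1 to 59 TPM in LDH controls and 408 to 490 TPM in Acly controls. For fibroblasts, perichondrium and tendon the sums were 377 to 700 and 1814 to 2285 TPM. For endothelium they were 5.47 to 9.42 and 53.75 to 59.45 TPM. The sums for cartilage cells, hypertrophic cartilage cells and leukocytes overlapped. The part of these shifts in the values of the members was not tested. Gdf10, a BMP-related ligand also called BMP3B, was at 12.6, 6.58 and 6.20 TPM in LDH controls and at 90.8, 121 and 69.6 TPM in Acly controls, a log2 difference of 3.30 (SE 0.27, edgeR adjusted p 1.04e-06). Tgfbi, a TGF-beta-induced matrix protein, was at 18.8, 12.3 and 13.3 TPM against 113, 149 and 118 TPM, a log2 difference of 2.92 (SE 0.21). Grem1 went the other way, at 45.8, 90.2 and 57.7 TPM in LDH controls and 6.28, 10.1 and 12.4 TPM in Acly controls, with -2.91 (SE 0.25). None of these groups came near each other.

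All 5 activin and TGF-beta ligands differed between the control groups, in a comparison that 55.0% of all genes passed. The activin subunit Inhba was lower in the embryonic cells, with -1.67 (SE 0.21) on the log2 scale, and Inhbb higher, with 1.74 (SE 0.24). Tgfb3, Tgfb2 and Tgfb1 were higher, with 1.43, 0.85 and 0.61. Among receptors Bmpr1b (-1.16) and Acvr1 (-0.57) were lower and Tgfbr1 (0.40) higher. Of the 8 Smads only Smad7 passed (-0.67), and Smad4 differed by 0.08 (SE 0.07) and Smad6 by 0.01 (SE 0.16). Nog was lower, with -0.37 (SE 0.15), Id3 was higher, with 0.77 (SE 0.15), and Ltbp1, which holds latent TGF-beta in the matrix, was lower, with -1.10 (SE 0.12). Without scaling between libraries the median of all genes shifted to 0.19 and 24 members passed, 17 higher and 7 lower. In that setting 7583 of all genes passed, and 72.4% of those were higher.

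Other genes of both pathways were taken from lists of 89 symbols, of which 88 were found, covering further ligands, receptors, antagonists, handling of latent TGF-beta, Smad regulators and target genes. In the LDH comparison 6 of 70 tested genes passed by edgeR (8.57%, against 2.49% of all genes), 5 higher and 1 lower. The median log2 fold change of the 70 was 0.04. As these lists were chosen with earlier results of these data known, a share above that of all genes is no test of them. Thbs1, a matrix protein that can activate latent TGF-beta and is also a TGF-beta target, was at 328, 254 and 266 CPM in controls and at 752, 586 and 634 CPM in knockouts, a log2 fold change of 1.22 (SE 0.13, edgeR adjusted p 0.00316). Ccn2, connective tissue growth factor, a TGF-beta target, was at 190, 184 and 204 CPM in controls and at 523, 528 and 359 CPM in knockouts, with 1.29 (SE 0.14, edgeR adjusted p 0.00357). In both, every knockout was above every control.

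Nedd4l, a ubiquitin ligase that acts on Smad2 and Smad3, rose by 0.69 (SE 0.12) from 28.7 ± 2.44 to 46.2 ± 6.80 CPM, and Bmper, an extracellular BMP modulator, by 0.73 (SE 0.16) from 5.15 ± 0.562 to 8.53 ± 1.20 CPM (SD, n = 3). Their edgeR adjusted p were 0.0196 and 0.0469. Both of the BMP target genes that passed are also on the marker lists of hypertrophic cartilage or bone-forming cells. The members of the hypertrophic list did not move together: their median log2 fold change was 0.06, and Spp1 (osteopontin) fell by 1.01 on the log2 scale (edgeR adjusted p 0.0384). Col10a1, the collagen of hypertrophic cartilage, was at 63.9, 116 and 64.8 CPM in controls and at 186, 327 and 282 CPM in knockouts, with 1.70 (SE 0.26, edgeR adjusted p 0.0118). Sp7, the bone cell factor osterix, was at 20.3, 21.2 and 17.2 CPM in controls and at 11.4, 6.78 and 7.02 CPM in knockouts, with -1.22 (SE 0.20, edgeR adjusted p 0.0164). None of the 6 passed with the Y-linked covariate, with edgeR adjusted p from 0.122 to 0.215, while their log2 fold changes ran from 0.80 to 2.09 for the genes that rose and stood at -1.0 for Sp7. Over 15 alternatives the call was lost in 10 for Bmper, 6 for Nedd4l, 5 for Sp7, 3 for Col10a1 and 2 each for Thbs1 and Ccn2. That of Bmper was lost without scaling (adjusted p 0.0516 by edgeR), with limma and in the fit of all 12 samples, and without any of the 3 controls or knockout replicate 1 or 2. Nedd4l was lost without control replicate 2 or 3 or knockout replicate 1 or 2, Sp7 without control replicate 1 or 3 or knockout replicate 2, and Col10a1 without control replicate 3, with edgeR adjusted p from 0.0517 to 0.0890 over these 3 genes.

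In the Acly comparison 1 of 76 tested genes of these lists passed by edgeR (1.32%, against 0.136% of all genes). Col10a1 was at 30.3, 26.8 and 23.3 CPM in Acly controls and at 60.3, 55.7 and 47.5 CPM in Acly knockouts, a log2 fold change of 1.02 (SE 0.13, edgeR adjusted p 0.0314). The call was lost in 8 of 14 alternatives, among them the fits without any 1 of the 3 controls or without knockout replicate 1 or 3, with adjusted p of up to 0.233 and log2 fold changes from 0.90 to 1.12. Of the 12 BMP target genes, 11 lay above 0 in Acly knockouts and 1 below, with a median log2 fold change of 0.48. For 5 of the 12 (41.7%) the edgeR p was under 0.05 unadjusted, where all genes had 15.8%. Groups stood apart for 5 (41.7%), each higher, where all genes had 22.0%. In the LDH set the same 12 genes split into 6 above and 6 below 0. The lists were chosen with earlier results known, so these shares are no test. Thbs1 and Ccn2 did not pass in the Acly set, with 0.42 (SE 0.30) and 0.35 (SE 0.16), and their groups overlapped. By the test of the difference between both effects 0 of 76 of these genes passed (edgeR, against 0.161% of all genes), with 20 at an unadjusted p under 0.05 (26.3%, against 13.0% of all genes).

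**Figure D5:**
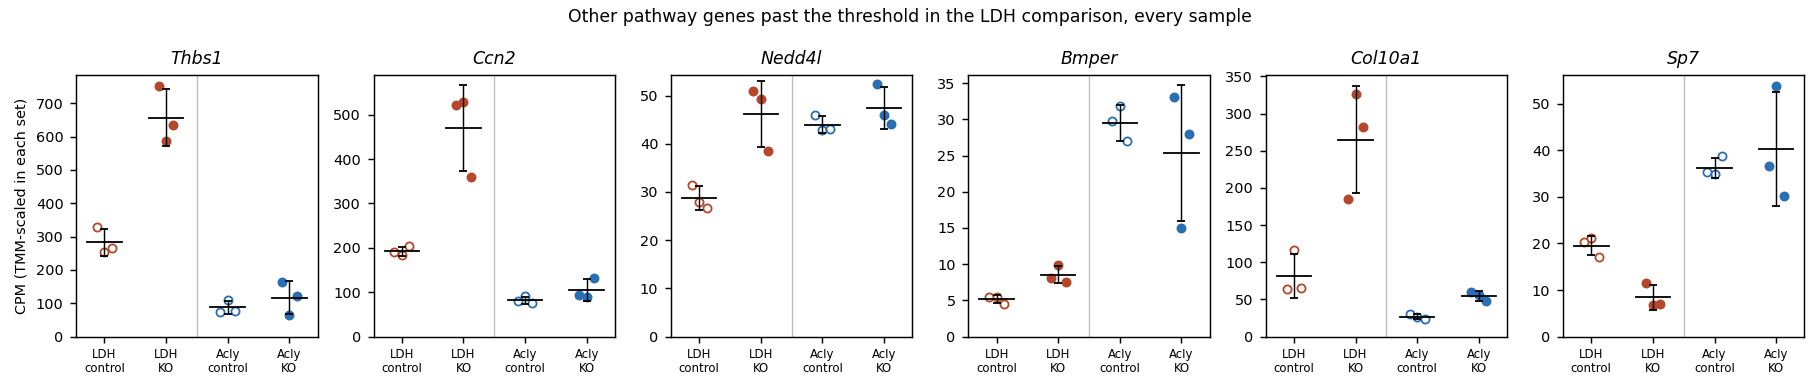
TMM-scaled CPM in every sample for the 6 other pathway genes that passed in the LDH comparison, with open points for controls, filled points for knockouts (KO), a line for the mean and bars for the SD (n = 3). Thbs1, Ccn2, Nedd4l, Bmper and Col10a1 are higher and Sp7 is lower in every LDH knockout than in any LDH control; in the Acly set only Col10a1 passed.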

How the data were processed

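RNA was selected with oligo(dT) beads and sequenced on BGI's platform, per the labels' protocols. HISAT2 2.0.4 and mm9 are named in the submitters' processing notes; the counting program, annotation and use of strand are not given in the sources used here. The authors deposited expected counts, FPKM and TPM per gene and sample, per the file headers. Between 7.32% and 8.16% of a sample's counts are not whole, and they were rounded. Gene names were checked against RefSeq (17814 of 17922 identifiers matched) and 28 symbols were restored.

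Counts were tested with edgeR 4.0.16 (R 4.3.3): TMM, filterByExpr, two-sided quasi-likelihood F tests, and p-values adjusted by Benjamini-Hochberg over all tested genes, threshold 0.05. Each knockout was fitted with its controls (6 samples); the difference of effects and the control groups were fitted over all 12. SE is the log2 fold change over the square root of F. The tests were checked on simulated data. TPM served for levels only, FPKM for an alternative with limma 3.58.1 on log2(FPKM + 1) for genes of at least 1 FPKM in 3 samples. DESeq2 1.42.0 was another. Y-linked signal is summed CPM of Ddx3y, Eif2s3y, Kdm5d and Uty, low below 5 CPM.

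Members and lists were chosen with earlier results of these data known. Named were members past the threshold, or with groups apart and a log2 fold change of at least 0.5, the 2 highest of each role by TPM, the 3 lowest p for the difference of effects, and other pathway genes past the threshold; further names were chosen after their values were seen. Counts of every pair of replicates differed beyond sampling noise. No molecular identifiers are named, so the floor of 3 counts covers counting error only.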

Additional observations from a re-analysis of the deposited data

How the results depend on the processing

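In the LDH comparison the number of members past the threshold was 2 as reported and with median-of-ratios scaling, and 2 in the fit of all 12 samples, where they were Bmp4 and Nog. It was 1 without scaling and 1 with limma on log2(FPKM + 1), 3 without a filter on low counts, 5 with DESeq2 (Bmp4, Acvr1, Nog, Tgfbr3 and Smad3), and 0 with the Y-linked covariate. It was also 0 among the samples low in Y-linked signal, a fit with control replicate 3 as its only control, so that it says little about stability. Leaving out 1 sample gave 0 to 6, with 6 without knockout replicate 3 and 0 without control replicate 1, control replicate 2 or knockout replicate 2. The cause was not tested. Over all genes, 332 passed as reported, 334 with median-of-ratios scaling and 336 without scaling. For the other settings no number over all genes is given here. Their counts therefore do not tell a change in the members from one in all genes. Bmp4 stayed negative in all 15 alternatives (-0.99 to -0.64). In the Acly comparison the number was 0 except with DESeq2 (1), and for the difference of effects it was 0 in all 18 alternatives; between control groups it was 17 to 24.

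The replicate numbers did not pair the samples: same-numbered knockout and control samples correlated at 0.0756, -0.183 and 0.00131 in the LDH set and at -0.151, -0.326 and -0.314 in the Acly set. With the replicate block 1 member, Bmp4, passed in the LDH comparison, 0 in the Acly comparison and 17 between the control groups, and Grem1 in the Acly comparison went to 0.028.

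Values near 0 changed sign. In the LDH comparison Smad4 went to -0.0022 with median-of-ratios scaling, -0.011 without scaling, -1.2e-05 without the filter, -0.0044 with DESeq2, -0.044 with the Y-linked covariate and -0.036 among the samples low in that signal. In those last 2 settings, the second of which rests on control replicate 3, the highest LDH control for the next 3 genes, Smad6 was at -0.28 and -0.23, Id1 at -0.083 and -0.050 and Id3 at -0.28 and -0.22, and Tgfb1 was at -0.00094 with the covariate. With 1 sample left out the ranges were -0.023 to 0.021 for Smad4, -0.0615 to 0.19 for Smad6, -0.018 to 0.29 for Id3, -0.012 to 0.11 for Tgfb3 and -0.081 to 0.48 for Gdf10. In the Acly comparison Grem1 was at 0.00063 with median-of-ratios scaling and Gdf5 at 0.0052 with the covariate. With 1 sample left out the ranges were -0.22 to 0.23 for Grem1, -0.15 to 0.19 for Gdf5, -0.21 to 0.18 for Gdf10, -0.20 to 0.0027 for Acvr1, -0.36 to 0.017 for Tgfb3 and -0.15 to 0.0096 for Ldha. Acly itself stayed lower but missed the threshold without scaling (-1.45, adjusted p 0.0564 by edgeR), with the covariate (-1.39, adjusted p 0.0692 by edgeR) and in 5 of 6 fits that lack 1 sample (-1.54 to -1.21). With 3 samples a group, members such as Gdf6, at 3 to 15 counts, could not be resolved at this depth.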
